A study of Mus musculus with 12 samples.

Results

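Of 18193 genes measured in sorted mouse CD8 T cells, 43 had a mean log2 intensity in PD-1+ Tim-3- tumour-infiltrating lymphocytes (TIL) at least 2 log2 units, 4-fold, above the means of both naive cells and PD-1+ Tim-3+ TIL. The 10 genes described here, Synpo, Adh4, Dnase1l3, Cd24a, Hapln1, Spock2, Plagl1, Cd83, Prnp and Otx1, are among these 43. They were chosen by those 3 group means, so their height in Tim-3- TIL is a description and carries no test. All 10 were measured, and no filter on low values was applied.

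Each of the 12 arrays held 1 sample. Naive CD8 T cells came from spleens of naive mice (5 arrays), and the PD-1+ Tim-3- TIL (3 arrays) and PD-1+ Tim-3+ TIL (4 arrays) from tumours of mice injected in the flank with B16F10-GP, a skin melanoma line, sorted on days 17 to 19. All mice were of strain C57bl/c, as the labels spell it, and 6 to 8 weeks old, and the labels name no transgene or drug in any group. Cells of the Tim-3- gate also lacked the receptor 2B4 and are called stem-like by the submitters. Those of the Tim-3+ gate carried 2B4 and are called exhausted. The naive sort gates are not given in the labels, the protocol describes enzymatic digestion for tumours only, and nothing says whether samples came from separate or pooled mice. P-values therefore measure the spread between these samples, which may be technical.

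In chronically stimulated CD8 T cells, a stem-like PD-1+ pool renews itself and gives rise to Tim-3+ cells with effector and exhaustion features. Both kinds of cell are found in tumours as well as in chronic viral infection. The 10 genes are not a pathway. They encode surface proteins (Cd24a, Cd83, Prnp), secreted and matrix proteins (Dnase1l3, Hapln1, Spock2), a cytoskeletal protein and an enzyme (Synpo, Adh4), and transcription factors (Plagl1, Otx1).

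The sorted cells carried their markers. The 7 measured genes of a CD8 T cell list averaged between 11.96 and 12.32 in every array. Havcr2, which encodes Tim-3, lay between 6.55 and 7.50 in the Tim-3- arrays and between 11.57 and 11.87 in the Tim-3+ arrays. Arrays of every group also fall into a set A (naive replicates 1 and 2, Tim-3- replicate 1, Tim-3+ replicates 1 and 2) and a set B (the other 7), which no label names and which stand apart in the values. In bulk samples, fewer cells that express a gene and less RNA per cell cannot be told apart.

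**Figure D1:**
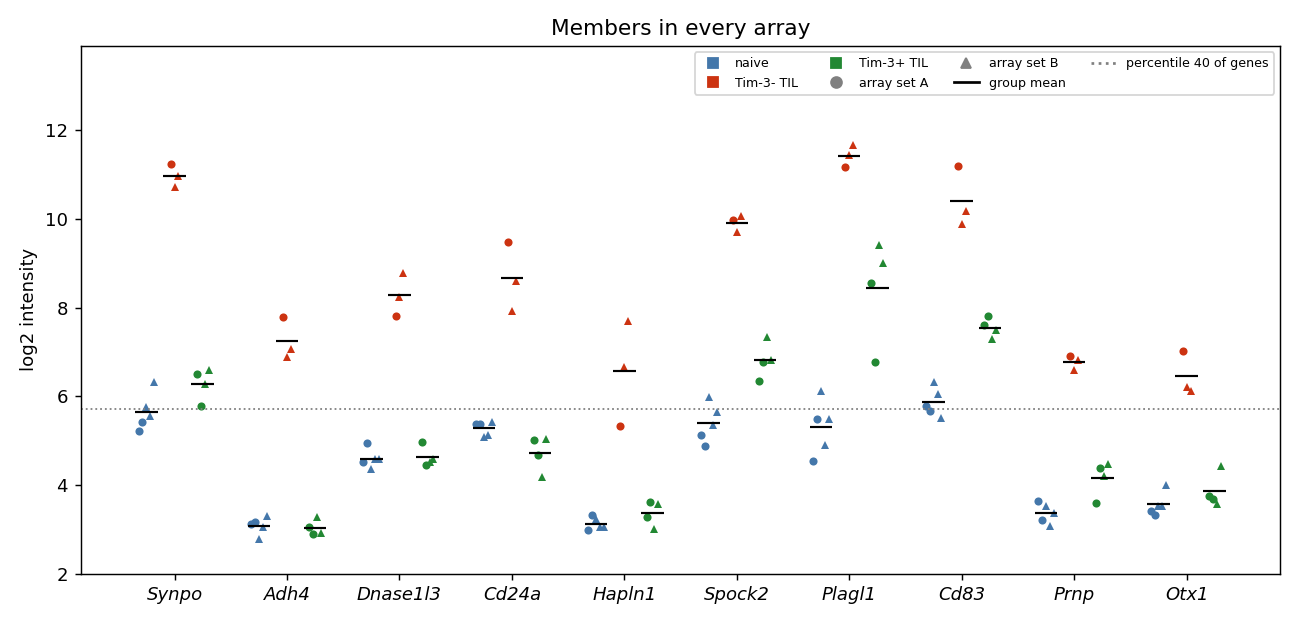
Log2 intensity of the 10 genes in all 12 arrays, coloured by group, with circles for set A, triangles for set B and black bars for group means. For every gene the 3 Tim-3- TIL arrays sit above all naive and Tim-3+ TIL arrays, and the dotted line at 5.71 is percentile 40 of the mean levels of all genes.

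All 3 Tim-3- arrays lay above all 9 other arrays for each of the 10 genes, which holds for 3.07% of all genes and follows from the choice of members (all 3 lay below in 2.78% of genes and in 0 members). The lowest Tim-3- array stood between 1.70 (Otx1) and 4.12 (Synpo) log2 units above the highest other array. The excess, the Tim-3- mean minus the higher of the other means, ran from 2.60 to 4.68 with a median of 3.15, against -0.18 over all genes. Naive means lay below 5.71, percentile 40 of the genes' mean levels, for 9 of the 10 genes, and Tim-3+ means for 6. Such dim values may be background, in which case the true excess may be larger. No Tim-3- mean lay below it.

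The start regions of the members differ widely in base composition. RefSeq's table for GRCm38.p6 holds an entry for 5 of the 10 genes, and the 250 bases before the start are described here because these genes rise in the same samples. The windows with the fewest and the most CpG pairs, and that of Prnp, are shown 5′ to 3′ on the plus strand with CpG pairs in capitals.
Adh4 (chr3:138415247-138415496): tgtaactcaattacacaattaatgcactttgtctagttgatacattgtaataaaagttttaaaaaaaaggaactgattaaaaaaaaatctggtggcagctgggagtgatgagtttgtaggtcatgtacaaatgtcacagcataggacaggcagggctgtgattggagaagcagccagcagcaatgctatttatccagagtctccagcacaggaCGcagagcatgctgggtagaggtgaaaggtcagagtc
Prnp (chr2:131909678-131909927): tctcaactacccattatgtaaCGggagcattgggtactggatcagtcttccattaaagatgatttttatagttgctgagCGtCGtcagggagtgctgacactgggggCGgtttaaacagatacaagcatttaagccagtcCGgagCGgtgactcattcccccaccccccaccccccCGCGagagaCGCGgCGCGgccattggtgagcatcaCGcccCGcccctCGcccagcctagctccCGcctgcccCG
Plagl1 (chr10:13090582-13090831): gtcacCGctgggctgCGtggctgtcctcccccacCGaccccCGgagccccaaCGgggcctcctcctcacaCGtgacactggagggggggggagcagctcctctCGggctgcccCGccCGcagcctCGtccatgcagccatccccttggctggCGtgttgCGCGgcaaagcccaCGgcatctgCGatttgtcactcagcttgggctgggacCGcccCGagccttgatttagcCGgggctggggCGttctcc
Adh4 has 1 CpG and 41.6% G+C, Prnp 17 and 58.8%, and Plagl1 19 and 70.4%. Hapln1 and Spock2 have 2 and 7 CpG pairs, against a median of 6 over 32851 windows. Plagl1 is an imprinted gene, expressed from the paternal copy.

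No motif searched was found in more than 1 of the 5 windows. On both strands, the AP-1 motif TGANTCA was found in Prnp (6.75% of all windows), CTTTGA of the TCF/LEF factors in Spock2 (13.8%) and TGTGGT of the RUNX factors in Hapln1 (14%). The TATA box letters TATAAA were found in Prnp, on the minus strand 186 bases before the start (12.4%). The NFAT letters TGGAAA (18.6%) and the NF-kappaB motif (7.25%) were found in none. A match is a description of letters and not a binding site, and no searched motif overlapped another in these windows.

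Among the surface proteins, Cd24a had the largest excess. It encodes a small, heavily glycosylated protein held by a lipid (GPI) anchor, known from immature lymphocytes and B cells. Its log2 intensities in the Tim-3- arrays were 9.48, 7.92 and 8.60, against 5.38, 5.38, 5.08, 5.12 and 5.43 in naive and 5.01, 4.68, 4.19 and 5.03 in Tim-3+ arrays. Tim-3- replicate 1 was highest, and the naive and Tim-3+ arrays did not overlap, with Tim-3+ lower. The Tim-3- mean of 8.67 ± 0.78 (SD, n = 3) stood 3.39 above naive and 3.94 above Tim-3+ cells. The 3 probe sets that name Cd24a gave an excess of 3.39, 3.33 and 3.01. The values above are of the first, and in both others naive and Tim-3+ arrays overlapped.

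Cd83 encodes an immunoglobulin superfamily protein that appears on activated dendritic cells and lymphocytes and shields MHC class II from degradation. It stood at 11.18, 9.88 and 10.17 in Tim-3- arrays, at 5.79, 5.68, 6.31, 6.05 and 5.51 in naive and at 7.60, 7.81, 7.29 and 7.49 in Tim-3+ arrays. The groups form 3 steps without overlap, with naive lowest and Tim-3- highest. The Tim-3- mean was 4.54 above naive and 2.86 above Tim-3+ cells.

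Prnp, which encodes the GPI-anchored prion protein, was dimmer. It stood at 6.91, 6.58 and 6.82 in Tim-3- arrays, at 3.63, 3.21, 3.53, 3.07 and 3.37 in naive and at 3.59, 4.38, 4.20 and 4.48 in Tim-3+ arrays. Tim-3+ replicate 1 lay within the naive range and the other Tim-3+ arrays above it. Its Tim-3- arrays spanned 0.32, the narrowest span among the members. The second Prnp probe set had an excess of 0.48 only.

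Dnase1l3 encodes a secreted endonuclease that digests chromatin DNA and is known from dendritic cells and macrophages. Its values were 7.82, 8.24 and 8.79 in Tim-3- arrays, 4.52, 4.95, 4.35, 4.58 and 4.58 in naive and 4.96, 4.45, 4.51 and 4.58 in Tim-3+ arrays. The naive and Tim-3+ arrays covered nearly the same range, and Tim-3- replicate 1 was lowest of its group. The excess was 3.66, and 3.79 by the other probe set. By that other probe set the naive mean was 3.67 and the Tim-3+ mean 4.10, with overlapping arrays.

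Hapln1 encodes a link protein that ties hyaluronan to proteoglycans in cartilage. It varied most among Tim-3- arrays, at 5.34, 6.66 and 7.70, against 2.98, 3.33, 3.22, 3.04 and 3.06 in naive and 3.29, 3.63, 3.01 and 3.57 in Tim-3+ arrays. Those 3 arrays span 2.36 log2 units, and the excess of 3.19 was 3.81 without replicate 1. Of its 4 probe sets, 3 had an excess of at least 3.02 and one of 1.52.

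Spock2 encodes testican-2, a secreted proteoglycan. It stood at 9.97, 9.70 and 10.06 in Tim-3- arrays, at 5.12, 4.87, 5.98, 5.34 and 5.65 in naive and at 6.34, 6.76, 7.33 and 6.81 in Tim-3+ arrays. As for Cd83, no group overlapped another and Tim-3+ cells lay between. The other probe set followed the same order with an excess of 1.34.

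Synpo, which encodes synaptopodin, an actin-binding protein of kidney podocytes and dendritic spines, had the largest excess of all 18193 genes. Its Tim-3- arrays stood at 11.23, 10.71 and 10.97, the naive arrays at 5.21, 5.42, 5.76, 5.55 and 6.32 and the Tim-3+ arrays at 6.50, 5.79, 6.28 and 6.59. The excess of 4.68 is 25.7-fold. Naive and Tim-3+ arrays overlapped. The other Synpo probe set stood between 5.24 and 5.93 in Tim-3- arrays, an excess of 0.16 with overlapping groups, so the measured rise rests on 1 probe set.

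Adh4 encodes an alcohol dehydrogenase best known from liver that can oxidise retinol. It stood at 7.78, 6.89 and 7.06 in Tim-3- arrays, at 3.12, 3.17, 2.77, 3.05 and 3.29 in naive and at 3.05, 2.91, 3.29 and 2.91 in Tim-3+ arrays. Both other groups lay among the dimmest 10th of genes by mean, at percentiles 7.05 and 7.12, while the Tim-3- mean was at percentile 57.7. Adh4, like Cd83 and Otx1, has a single probe set.

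Plagl1 encodes a zinc finger transcription factor and was the brightest member, at 11.16, 11.44 and 11.66 in Tim-3- arrays. Naive arrays stood at 4.54, 5.49, 6.12, 4.90 and 5.48, and Tim-3+ arrays at 8.55, 6.78, 9.42 and 9.01. Tim-3+ replicate 2 was the lowest Tim-3+ array yet lay above all naive arrays. Its difference of 6.12 from naive cells was the largest among the members. The other probe sets had an excess of 3.54 and 1.91.

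Otx1 encodes a homeobox factor of forebrain development. It stood at 7.02, 6.22 and 6.12 in Tim-3- arrays, at 3.41, 3.32, 3.53, 3.53 and 4.01 in naive and at 3.75, 3.68, 3.57 and 4.42 in Tim-3+ arrays. Its excess of 2.60 was the smallest among the members, and naive and Tim-3+ arrays overlapped.

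**Figure D2:**
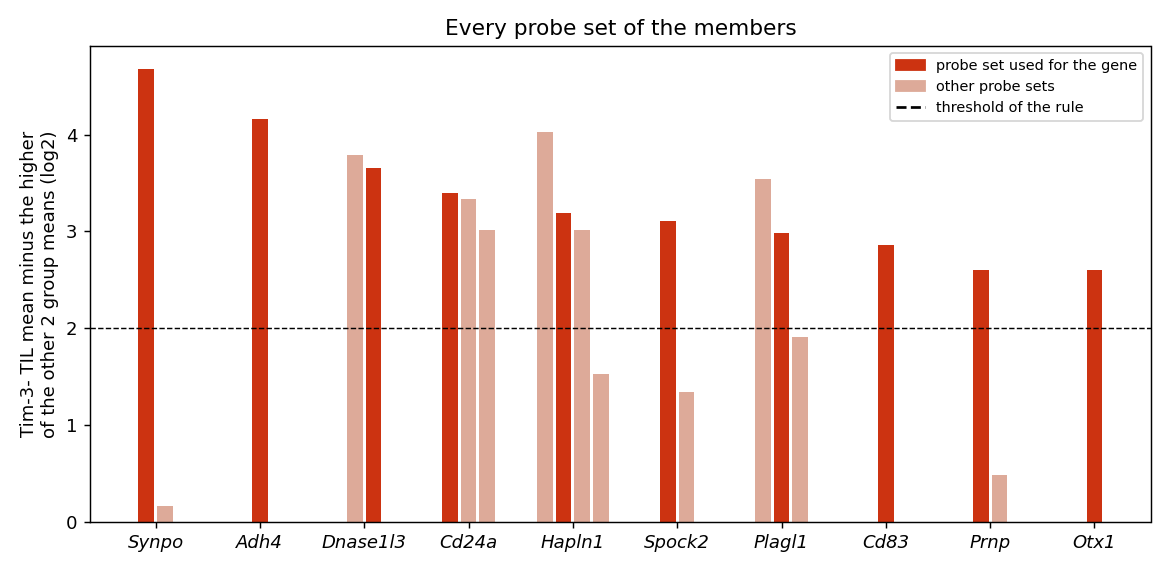
Excess in Tim-3- TIL (log2, Tim-3- mean minus the higher of the other group means) for all 21 probe sets of the 10 genes, with the one used for each gene in dark red and the threshold of 2 as a dashed line. Of the 21, 16 reached 2, 3 lay between 1 and 2 and 2, of Synpo and Prnp, lay below 1.

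Probe sets of 1 gene read the same RNA and are not replicates. Of the 11 probe sets not used for a gene's value, 6 reached an excess of 2, and the range was 0.16 to 4.03. In 20 of the 21 all Tim-3- arrays lay above all others, as in 3.07% of all genes by the probe set used. For the 10 probe sets used this follows from the choice of members, and the other 11 read the same chosen genes.

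The members did not rise and fall as a block within groups. Tim-3- replicate 1, the only one in set A, was the highest Tim-3- array for 6 genes (Synpo, Adh4, Cd24a, Cd83, Prnp, Otx1) and the lowest for 3 (Dnase1l3, Hapln1, Plagl1). Deviations from the group means over the 12 arrays correlated with a median r of 0.041 over 45 gene pairs, from -0.73 (Adh4 with Hapln1) to 0.72 (Dnase1l3 with Hapln1). These correlations are descriptions over arrays that share their processing. The residual SD of the members within groups, 0.38 in the median, was above the 0.19 of all genes, and every member lay at or above percentile 80.0.

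**Figure D3:**
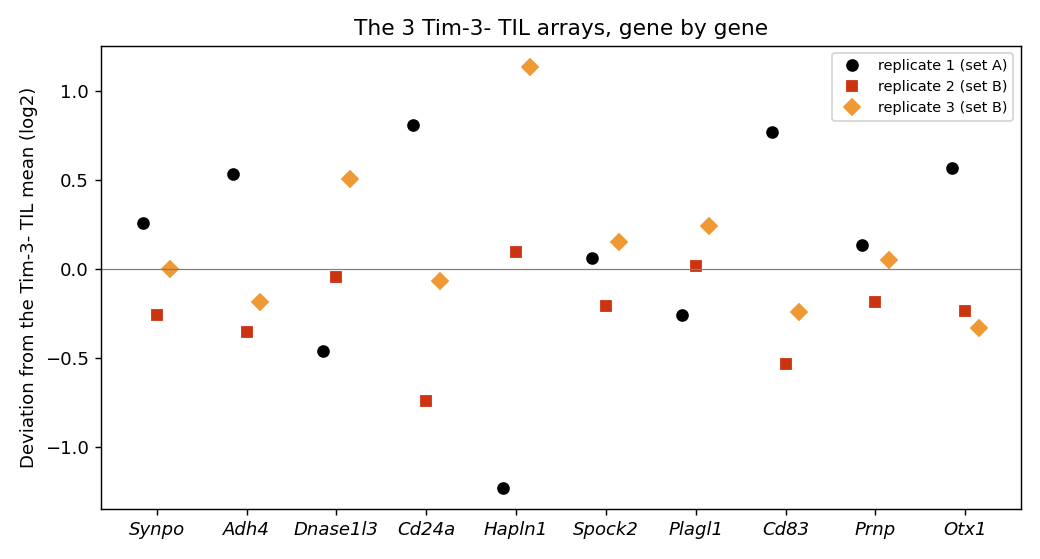
Deviation of the 3 Tim-3- TIL arrays from their mean (log2) for each gene, with replicate 1 (set A) in black and replicates 2 and 3 (set B) in red and orange. Replicate 1 is highest for 6 genes and lowest for Dnase1l3, Hapln1 and Plagl1.

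Within set A the excess ran from 1.88 (Hapln1) to 5.09 (Synpo) and reached 2 for 9 of 10 genes. Within set B it ran from 2.17 (Otx1) to 4.41 (Synpo) and reached 2 for all 10. Set A holds a single Tim-3- array. The arrays of both sets chose the members, so these values are descriptions and carry no test.

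Tim-3+ TIL were compared with naive cells to ask whether a member's level differs between the groups in which it is lower. The rule set both groups against Tim-3- TIL and not against each other, although the same arrays chose the members. By limma with Benjamini-Hochberg adjustment over 18193 genes, 5 of the 10 were higher in Tim-3+ TIL and 0 lower, with adjusted p below 0.05. At an unadjusted p below 0.05, 5 were higher and 1, Cd24a, lower. Over all genes 20.1% were higher and 21.4% lower, 41.5% in all. The median log2 change was 0.46 over the members and -0.065 over all genes.

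Plagl1 was 8.80-fold higher in Tim-3+ than in naive cells (log2 change 3.14 ± 0.44 SE, adjusted p = 4.37e-05, limma). Cd83 was 3.20-fold higher (1.68 ± 0.23, adjusted p = 3.95e-05) and Spock2 2.67-fold (1.42 ± 0.22, adjusted p = 0.000120). For these 3 genes all 4 Tim-3+ arrays lay above all 5 naive arrays, and the call held in all 12 fits that left out 1 array and in the other 12 alternatives. Including Cd24a, 4 members had Tim-3+ and naive arrays that did not overlap by the probe set used, as did 37.3% of all genes. By the probe sets not used, the change was 2.71 and 0.17 for Plagl1 and 0.56 for Spock2. Naive and Tim-3+ arrays overlapped in the Plagl1 probe set at 0.17 and in that of Spock2, so the size of these changes depends on the probe set.

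Prnp and Synpo changed less, and their groups overlapped. Prnp was higher by 0.80 ± 0.17 (adjusted p = 0.00167, limma), 0.57 within set A (adjusted p = 0.187) and 1.02 within set B. With log2(intensity + 32) it was 0.25 (adjusted p = 0.0134, limma). By the other Prnp probe set the change was 0.17, with all Tim-3+ arrays within the naive range. Synpo was higher by 0.64 ± 0.21 (adjusted p = 0.0280). Leaving out naive replicate 1, 2 or 4, or else replicate 1, 3 or 4 of the Tim-3+ TIL, ended the Synpo call, the highest adjusted p being 0.0894. The other Synpo probe set went the opposite way, with a change of -0.39. With the mean of its probe sets the Synpo change was 0.12 (adjusted p = 0.487, limma). It was 0.56 in set B alone (adjusted p = 0.0807), and 0.42 with log2(intensity + 32) (adjusted p = 0.0584).

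The other 5 members did not pass. Cd24a was at -0.55 ± 0.25 (adjusted p = 0.0997, limma), and passed without Tim-3- replicate 1 or 2 (adjusted p = 0.0264 and 0.0406), with the mean of its probe sets (-0.51, adjusted p = 0.0217), in a fit blocked by set (adjusted p = 0.0414), within set A (adjusted p = 0.0352) and in a fit of the compared groups only (adjusted p = 0.0181). Adh4 was at -0.041 ± 0.17, Dnase1l3 at 0.029 ± 0.18, Hapln1 at 0.25 ± 0.33 and Otx1 at 0.29 ± 0.21, with adjusted p between 0.304 and 0.916. These 4, and also Cd24a and Prnp, have naive and Tim-3+ means below 5.71, where a difference may not be measured in full or at all, and a p above the threshold does not show equal levels.

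**Figure D4:**
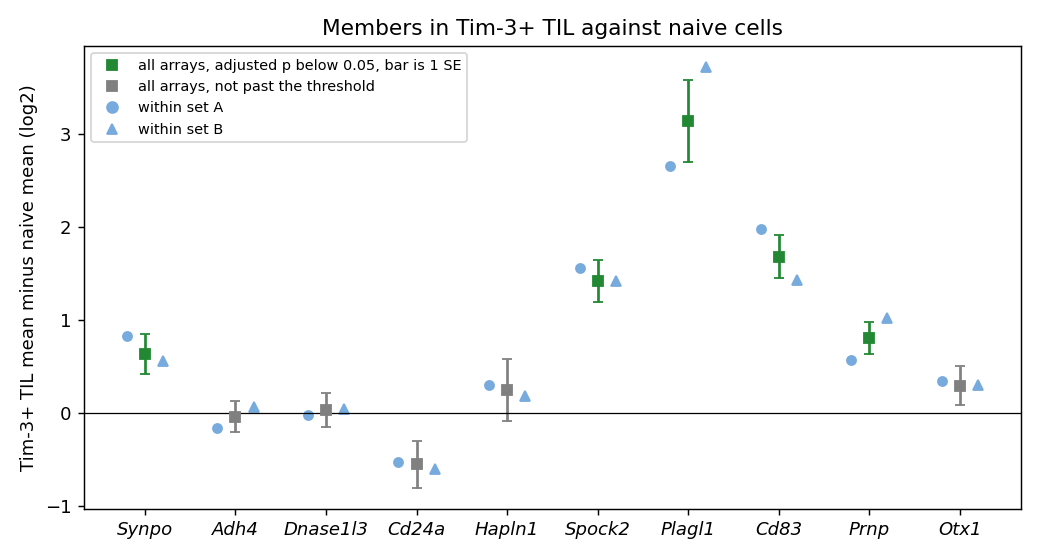
Tim-3+ TIL mean minus naive mean (log2) for each gene over all arrays, with bars of 1 SE and green for adjusted p below 0.05, beside the values within set A (circles) and set B (triangles). Plagl1, Cd83 and Spock2 lie at 3.14, 1.68 and 1.42, and Adh4 and Dnase1l3 near 0.

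The other 33 genes that met the rule had an excess between 2.01 and 4.36. They include receptors and ligands of the chemokine system: Ccr6 (excess 4.36), Cxcr5 (2.82), Cxcr3 (2.56), Cxcl13 (2.38) and Cxcl10 (2.22). Cytokine and growth factor genes among them are Tnfsf11 (2.94), Il2 (2.26), Fgf2 (2.14) and Ccn4 (2.46). The remaining genes are Gucy1a1, Wipf3, Slc15a1, Klrb1f, Idi2, Dclk1, Sgip1, Tubb2b, Tiam1, Dmrta1, Hemgn, Dhrs3, Lrig1, Gm31718, Lratd1, Ramp3, Glt28d2, Tbc1d4, Art3, Klf4, Car2, Esm1, Scin and Slc43a1.

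The genes nearest the threshold show how gradual it is. Just inside lie Slc43a1 (2.01), Scin (2.06) and Esm1 (2.07), and just outside Cd81 (1.997), Il3 (1.97), Mmp10 (1.96), Myb (1.96) and Pik3r6 (1.95). At a threshold of 1 log2 unit 174 genes qualified, and at 2.5 only 14, among them all 10 members. In the opposite direction 0 genes lay at least 2 below both groups and 18 at least 1 below.

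**Figure D5:**
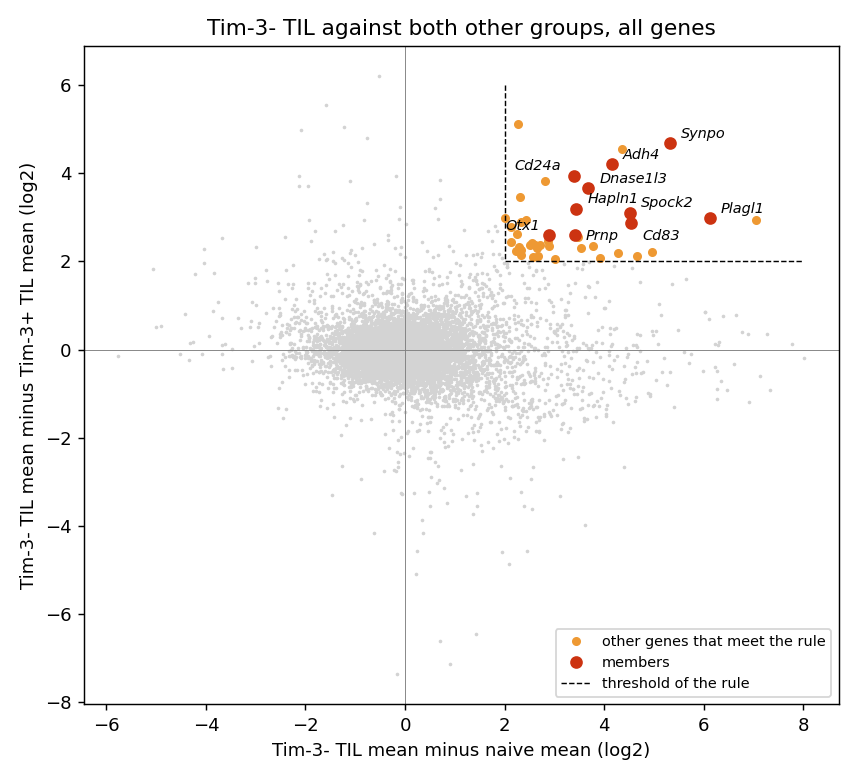
Each of 18193 genes by its Tim-3- TIL mean minus the naive mean (x axis, log2) and minus the Tim-3+ TIL mean (y axis, log2), with the threshold of 2 as dashed lines. The 10 members (red, named) and the other 33 genes of the rule (orange) fill the upper right corner. Among the members, Synpo is highest on the y axis and Plagl1 is farthest right. Of the orange genes, Lrig1 lies higher than Synpo, and Tnfsf11 lies farther right than Plagl1, at 7.05.

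The genes most like the members were found by the correlation of each gene's log2 profile over the 12 arrays with the mean scaled profile of the members. The highest were Tbc1d4, a regulator of glucose transporter traffic (r = 0.991), the transcriptional repressor Etv6 (0.984), the Src family kinase Yes1 (0.981), Fam160a1 (0.980), Wipf3 (0.979), Glt28d2 (0.979), the cytokine Il18 (0.978), Ccn4 (0.973), Ccr6 (0.973) and Ksr1 (0.972). Of these, Tbc1d4, Wipf3, Glt28d2, Ccn4 and Ccr6 also met the rule. Etv6 stood at 10.08 ± 0.079 (SD) in Tim-3- TIL, against 8.51 ± 0.12 in naive cells and 8.80 ± 0.20 in Tim-3+ TIL. The r values mostly restate the 3 group levels.

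Lists of genes related to the members by family or function, 164 genes in 8 lists, were examined with limma's fit. Against naive cells, 34 were higher in Tim-3- TIL (20.7%, against 16.1% of all genes) and 30 lower (18.3%, against 18.3%). From Tim-3- to Tim-3+ TIL 11 were higher (6.71%, against 7.77%) and 22 lower (13.4%, against 5.77%). Leaving out any 1 of the 3 Tim-3- arrays, or replicate 1 or 3 of the Tim-3+ TIL, gave 6 or 7 in place of the 11. Of the 164, only Dhrs3 met the peaking rule.

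Of 21 alcohol dehydrogenases and other retinoid genes, listed for Adh4, 3 were higher in Tim-3- TIL than in naive cells and 4 lower. From Tim-3- to Tim-3+ TIL 0 rose and 4 fell. The medians were -0.067 and -0.12, against -0.063 and 0.011 over all genes. Dhrs3, which reduces retinaldehyde to retinol, stood at 6.35, 8.13 and 8.06 in Tim-3- arrays, and no naive or Tim-3+ array exceeded 5.61. Its replicate 1 was the low one, and the difference from naive was 1.24 within set A and 2.79 within set B (2.29 ± 0.32 over all arrays, adjusted p = 7.21e-05, limma). Adh1, a relative of Adh4, was lower in Tim-3- TIL than in naive cells by limma (-1.30 ± 0.18, adjusted p = 5.73e-05), as was the retinoic acid receptor Rarg (-1.46 ± 0.11, adjusted p = 1.47e-07).

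GPI-anchored surface proteins, the class of Cd24a and Prnp, went both ways: 3 of 19 were higher in Tim-3- TIL than in naive cells and 4 lower, and 4 rose and 4 fell from Tim-3- to Tim-3+ TIL. Bst1, an enzyme of NAD metabolism, came nearest to the members' pattern, at 6.14 ± 0.48 (SD) in Tim-3- TIL, against 3.56 ± 0.21 in naive cells and 4.44 ± 0.23 in Tim-3+ TIL. Its change from Tim-3- to Tim-3+ TIL was -1.70 ± 0.20 (adjusted p = 6.13e-05, limma).

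Of 17 genes of antigen presentation and costimulation, listed for Cd83, 10 were higher in Tim-3- TIL than in naive cells and 1 lower, with a median of 1.02. From Tim-3- to Tim-3+ TIL 2 rose and 4 fell. Marchf8, a ubiquitin ligase that removes MHC class II and is opposed by CD83, was higher still in Tim-3+ TIL, by 1.33 ± 0.26 (adjusted p = 0.00315, limma), a call lost within set A. The TNF family ligand Cd70 changed by -1.09 ± 0.20 (adjusted p = 0.00224). Pdcd1lg2 and Cd80 were higher in Tim-3- TIL than in naive cells by 4.10 ± 0.18 and 3.49 ± 0.20, and stood at 8.36 and 7.87 in Tim-3- TIL, against 8.40 and 8.30 in Tim-3+ TIL.

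Of 30 homeobox factors, listed for Otx1, 9 were higher in Tim-3- TIL than in naive cells and 4 lower, and 4 rose and 6 fell from Tim-3- to Tim-3+ TIL. Tgif1, a repressor in TGF-beta signalling, followed the members' order with smaller steps, at 10.98 ± 0.071 (SD) in Tim-3- TIL, 9.86 ± 0.12 in Tim-3+ TIL and 8.79 ± 0.20 in naive cells. Pou6f1 fell by 2.71 on the log2 scale from Tim-3- to Tim-3+ TIL (adjusted p = 4.27e-06, limma).

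The other 4 lists held few genes with the members' pattern. Of 28 hyaluronan and proteoglycan genes, listed for Hapln1 and Spock2, 4 were higher in Tim-3- TIL than in naive cells and 2 lower. They include Cd44, the hyaluronan receptor (4.72 ± 0.15, adjusted p = 3.70e-11, limma), which stood at 10.88 ± 0.25 (SD) in Tim-3- TIL and still at 10.56 ± 0.092 in Tim-3+ TIL. From Tim-3- to Tim-3+ TIL 0 rose and 1 fell. Of 16 actin and synaptopodin genes 1 was higher in Tim-3- TIL than in naive cells and 6 lower, then 1 rose and 2 fell. Of 11 nucleases 1 was higher and 5 lower, then 0 rose and 1 fell. Of 22 PLAG family and imprinted genes 3 were higher and 4 lower, then 0 rose and 0 fell.

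Some members are also known from other cells, and markers of those cells were read in the same arrays. The 11 measured B cell markers averaged between 5.42 and 5.47 in Tim-3- arrays, between 5.88 and 6.25 in naive and between 5.12 and 5.21 in Tim-3+ arrays. In Tim-3- TIL 9 of the 11 had means below 5.71, Ms4a1, which encodes CD20, at 3.27 and Cd79a at 5.66. The other 2, Ighm and Cd79b, differed from naive cells by -1.44 and -2.52, and fell further from Tim-3- to Tim-3+ TIL, by 2.00 and 0.78 on the log2 scale (adjusted p = 5.70e-07 and 0.00109, limma). Of the 11, 1 was higher in Tim-3- TIL than in naive cells and 5 lower, and 0 rose and 3 fell toward Tim-3+ TIL. Cd22 was the one that was higher (0.69) and then lower (-0.93). The part of B cells in the members' levels was not tested.

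The 9 dendritic cell markers averaged 6.08, 6.50 and 6.45 in Tim-3- arrays, between 5.47 and 5.92 in naive and between 5.93 and 6.17 in Tim-3+ arrays. Of the 9, 3 were higher in Tim-3- TIL than in naive cells and 1 lower (16.1% and 18.3% of all genes), and 0 rose and 2 fell toward Tim-3+ TIL. Cd74, the invariant chain of MHC class II, stood at 9.10, 10.07 and 10.76 in Tim-3- arrays. Dnase1l3, Hapln1 and Plagl1 had the same order over replicates, and the other members did not. The mean of Cd74 was 7.17 in naive and 8.36 in Tim-3+ cells. H2-Aa, also on this list, differed from naive cells by 0.51 in Tim-3- TIL (adjusted p = 0.189, limma) and changed by -0.40 toward Tim-3+ TIL (adjusted p = 0.474). In Tim-3- TIL 3 of the 9, Flt3, Xcr1 and Cd209a, lay below 5.71, between 3.97 and 4.37. The part of such cells in the result was not tested. Of 9 monocyte and macrophage markers 7 lay below 5.71 in Tim-3- TIL, with Adgre1, which encodes F4/80, at 3.14 and Cd68 at 8.28, against 6.83 in naive cells and 7.46 in Tim-3+ TIL.

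Immediate early and dissociation genes averaged highest in Tim-3- arrays, and Tim-3+ arrays lay closer to these than to naive arrays. The 25 genes of this list averaged between 10.19 and 10.41 in Tim-3- arrays. They averaged between 8.21 and 8.81 in naive and between 9.75 and 10.03 in Tim-3+ arrays. Against naive cells 17 were higher in Tim-3- TIL and 2 lower (16.1% and 18.3% of all genes). From Tim-3- to Tim-3+ TIL 2 rose and 6 fell (7.77% and 5.77% of all genes), and 17 did not pass. Cd83 is itself an early activation gene. Tim-3- replicate 1 was the highest Tim-3- array for this list and for 6 members, Cd83 among them, and the lowest for 3 members. In Tim-3- replicates 1, 2 and 3 the list averaged 10.41, 10.25 and 10.19, and Cd83 stood at 11.18, 9.88 and 10.17. The part of these list genes in the members' levels was not tested. Only TIL were digested from tumour.

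The remaining marker lists gave these levels. The 8 melanoma markers averaged 5.56, 5.43 and 6.13 in Tim-3- arrays, between 5.23 and 7.08 in Tim-3+ arrays and between 5.05 and 5.15 in naive arrays. Against naive cells 2 of the 8 were higher in Tim-3- TIL and 1 lower, and 5 were higher in Tim-3+ TIL and 1 lower. The CD4 and regulatory T cell markers averaged between 8.00 and 8.13 in Tim-3- arrays. They averaged between 7.76 and 7.91 in Tim-3+ and between 6.20 and 6.40 in naive arrays. Of the 6 measured, 5 were higher in Tim-3- TIL than in naive cells and 0 lower (16.1% and 18.3% of all genes). From Tim-3- to Tim-3+ TIL 0 rose and 2 fell (7.77% and 5.77% of all genes). Ikzf2 stood at 10.92, Il2ra at 9.37 and Foxp3 at 7.94 in Tim-3- TIL. Toward Tim-3+ TIL Ikzf2 changed by -0.099 and Il2ra by 0.15 (adjusted p = 0.853 and 0.810, limma). Foxp3 stood at 7.09 in naive cells and 6.93 in Tim-3+ TIL. Cd4 was at 7.34 in Tim-3- TIL, 6.51 in naive cells and 7.50 in Tim-3+ TIL. Their part in the members' levels was not tested. The 7 immature thymocyte markers averaged between 4.67 and 4.88 in Tim-3- and between 4.92 and 5.18 in naive arrays, with Rag1 at 3.09. Neutrophil, erythroid, NK cell, and fibroblast and endothelium lists averaged at most 5.23 in Tim-3- arrays.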

How the data were processed

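Expression was measured on Affymetrix arrays. The authors deposited 1 linear intensity for each probe set, and array medians ran from 58.8 to 63.0. RMA and affy are named in the submitters' processing notes. Versions, how values returned to linear units, and whether arrays were normalized jointly: not given in the sources used here. Precision is limited by how many arrays there are.

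The log2 of each intensity was taken. Each gene took the probe set with the highest mean among 34945 naming only that gene, giving 18193 genes. Limma 3.58.1 (R 4.3.3) fitted the 3 group means over all arrays, two-sided, with Benjamini-Hochberg adjustment. Summaries and figures were made in Python 3.11.15 (pandas 2.3.3, numpy 2.4.6, matplotlib 3.10.9). Gene names are those of the array annotation.

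Members, lists, sets and alternatives were chosen with earlier results of these data known. Genes named follow a rule: members, all genes meeting the threshold and the 5 nearest below, the 10 most alike, up to 3 called genes per related list and contrast, and the 2 brightest of each marker list in Tim-3- TIL; the text leaves some out. Ms4a1, Cd79a, Flt3, Xcr1, Cd209a, Adgre1, Foxp3, Cd22 and Rag1 were added after their values were seen, as was Cd4 for its list. List genes that matched no probe set naming 1 gene were not used.

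The fit was tested on simulated data, with noise independent between arrays and no array sets. For Tim-3+ TIL against naive cells, 54% of genes changed by 0.5 log2 units were recovered and 90% of those changed by 1. For Tim-3- TIL against naive cells these were 20% and 80%, and for Tim-3+ against Tim-3- TIL 32% and 88%. Deviations of same-numbered Tim-3+ and naive arrays correlated in all 4 pairs (r from 0.128 to 0.319), each within a set, but differently numbered arrays of 1 set correlated as much (naive 2 with Tim-3+ 1, 0.303). Same-numbered pairs across sets, of Tim-3- replicate 2, were at -0.150 and -0.131. Between the TIL groups, Tim-3- 1 was at 0.413 with Tim-3+ 1 and at 0.290 with Tim-3+ 2. Tim-3- 3 was at 0.268 with Tim-3+ 3 and at 0.276 with Tim-3+ 4. The replicate numbers are therefore not taken as pairs beyond the set, and the replicate block is an alternative. The alternatives were other probe set rules, quantile normalization again, a pseudocount of 32, a filter at percentile 40, array sets, a replicate block, other limma settings, and leaving out each array.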

Additional observations from a re-analysis of the deposited data

How the results depend on the processing

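The count of genes meeting the rule, 43, was 17 with log2(intensity + 32), 21 with the filter on dim genes, 65 within set A, and 174, 84 and 14 at thresholds of 1, 1.5 and 2.5. It ranged from 39 to 51 without 1 array. All 10 members met the rule in each of the 12 fits without 1 array, 7 with the pseudocount, 9 with the mean of probe sets and 5 with the filter, which removed the other 5. The same arrays chose the members, so these counts of members are descriptions and carry no test. The members higher in Tim-3+ TIL than in naive cells numbered 4 or 5 under all alternatives. The members lower numbered 1 with the mean of probe sets, with set as a blocking term, within set A and in a fit of the compared groups only, and 0 to 1 without 1 array. That gene was Cd24a each time. Its change was -0.55 in the main fit, without Tim-3- replicate 1 or 2, and with the compared groups only. With the replicate block, in which naive replicate 5 has no partner, 5 members were higher and 0 lower, and no member's call changed. Of the related genes, those with a rise between the Tim-3- and Tim-3+ arrays, 11 in all, were 6 with the filter, 4 within set A, and 6 to 11 without 1 array. Changes near 0 turned sign. Adh4 was at 0.013 with quantile normalization, 0.063 within set B, 0.012 with the replicate block and -0.12 to 0.012 without 1 array. Dnase1l3 was at -0.029 within set A and -0.083 to 0.12 without 1 array. With the most variable probe set Dnase1l3 was at 0.43, and with the mean of its probe sets at 0.23 (adjusted p = 0.219 and 0.393, limma). Except for the filter, the pseudocount and the thresholds, which by construction remove or compress dim values or shift the rule, the cause was not tested. Without detection calls, levels below log2 5.71 limit what can be measured.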
